A study of Mus musculus with 2 samples.

Results

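The autophagy machinery was described here as 42 genes, from the kinases that start an autophagosome to the receptors that load its cargo. Its members were the gene probes on the arrays whose gene name equalled one of 42 chosen symbols, whatever their signal. By this rule 36 genes with 52 probes were found among 31901 genes and 39429 probes, and 35 of them were well above background on both arrays. The other 6 (Atg13, Atg101, Atg14, Rubcn, Vmp1 and Tfeb) stand on the array under older names. They were found through their accessions, were all measured, and are given beside the rest but left out of the counts unless said otherwise. Atg4a, an ATG4 protease, had 1 probe, which was too dim on both arrays to count as measured, and no ratio is given for it.

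The study asked which genes differ in a muscle that has atrophied in a plaster cast. Gastrocnemius, the large calf muscle, was taken from male C57BL/6 mice aged 9 weeks whose hindlimb was immobilised in a cast for 11 days, and from control mice of the same strain, sex and age without a cast. Material from the mice of a group was pooled, with N = 6 per group in the labels, read here as 6 mice. Each pool was hybridised to 1 array with a single dye, Cy3, so each group is n = 1, no difference has a replicate check or a test, and every ratio describes these 2 pools.

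Macroautophagy, called autophagy here, is the route by which a cell encloses cytoplasm, protein aggregates or organelles in a double membrane, the autophagosome, and delivers them to the lysosome for breakdown. A kinase complex starts the process, a lipid kinase marks the membrane, lipid carriers enlarge it, ubiquitin-like conjugation attaches proteins of the ATG8 family to it, and receptors tie cargo to those proteins. In skeletal muscle, autophagy and the proteasome are the main routes of protein loss during atrophy, and FoxO and TFEB family transcription factors are known to act on genes of the pathway. The arrays measured RNA, which is not a measure of autophagic flux.

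Scaled signal is the processed intensity of a spot divided by its array's 75th percentile over gene probes, and it has no unit. The 75th percentile was 486 on the cast array and 385 on the control array. Of 39418 gene probes, 22373 (56.8%) were well above background on the cast array and 23896 (60.6%) on the control array. None was saturated, and no spot of a member carried a quality flag. A log2 ratio above 0 means a higher scaled signal on the cast array. Probes printed several times on an array gave log2 ratios with a median spot-level SD of 0.10 over 259 probes, 0.16 over the 65 dimmest and 0.08 over the 65 brightest. That SD covers printing and scanning only, and not differences between mice, pools or labellings. In RNA from a whole tissue, fewer cells of a type and less RNA per cell cannot be told apart.

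Most autophagy genes lay close to equality. Of the 35 members measured, each read from its probe of highest mean signal, 32 were within 1.5-fold between cast and control, 2 were at least 1.5-fold higher in cast muscle (Map1lc3a and Optn) and 1 was at least 1.5-fold lower (Fundc1). Over all 15708 named genes measured on both arrays, 7.1% were at least 1.5-fold higher and 8.26% at least 1.5-fold lower, so the members' shares on either side were not above that background. At 2-fold the same 2 genes were higher and 0 members were lower, where 2.25% of all genes were higher and 2.1% lower.

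Within this narrow range the members lay slightly toward the cast side. Their median log2 ratio was 0.23, where that of all measured genes was -0.03. Ratios above 0 were found for 22 of 35 members (62.9%) and for 46.7% of all genes. The quartiles of the members were -0.11 and 0.33, against -0.28 and 0.23 over all genes. With the 6 members under older names the median was 0.17 and 26 of 41 ratios were above 0. Without scaling between arrays, or with scaling to the spike-in control RNAs, all genes together shifted to medians of 0.31 and 0.32. Both settings move every gene by the same amount, so the members' median had to stay 0.26 above that of all genes. This gap was 0.18 with quantile scaling, 0.17 with cyclic loess scaling, 0.14 with no filter on dim probes and 0.28 with the normexp background. The sign of 10 members turned without scaling and with spike-in scaling, which is said below where each is described.

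**Figure D1:**
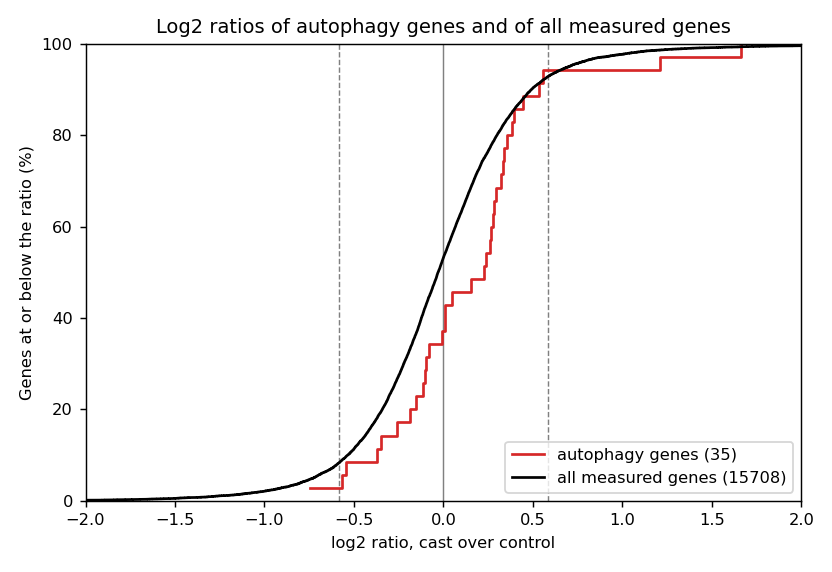
Share of genes (%, vertical axis) at or below a given log2 ratio of cast over control (horizontal axis), for the 35 autophagy genes found by symbol (red) and all 15708 measured genes (black). Solid and dashed vertical lines mark equality and 1.5-fold, and the axis ends at 4-fold on either side. The red curve runs to the right of the black one through the middle of the range, with medians of 0.23 and -0.03, and both are close together beyond 1.5-fold.

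The members of the ULK1 complex, the kinase assembly that receives the starting signal, lay on both sides of equality. Ulk2, a kinase close to Ulk1, had a scaled signal of 1.04 in cast muscle, against 1.54 in control muscle, a log2 ratio of -0.57 or 1.48-fold lower. Its dimmer probe gave -0.69, on the same side and past 1.5-fold. Ulk1, the kinase named for the complex, had 18.5 in cast and 19.8 in control muscle, a ratio of -0.10 whose sign turned without scaling and with spike-in scaling. Atg13, the adaptor that holds the kinases in the complex, was at 10.8 in cast and 8.15 in control muscle, a ratio of 0.41. Atg101, which binds Atg13, had 10.9 in cast and 13.1 in control muscle, a ratio of -0.27 that turned in sign with the same scalings. By its main probe, the one with the highest mean signal, none of the 4 reached 1.5-fold with the 75th percentile scaling. Ulk2 passed it with the mean of its probes. Atg13 passed it without scaling and with spike-in scaling, at 0.74 and 0.76, where the medians of all genes were 0.31 and 0.32.

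The class III phosphatidylinositol 3-kinase complex, which makes the lipid that marks the forming membrane, lay mostly above 0, with 6 of 7 members and a median of 0.26. Uvrag, which joins the form of the complex that acts on endosomes, stood farthest out, with 2.75 in cast and 1.90 in control muscle, a ratio of 0.53 or 1.45-fold higher. Rubcn, an inhibitor of the Uvrag-containing complex, had 14.5 in cast and 12.2 in control muscle, a ratio of 0.26. The scaffold Becn1 and its regulator Ambra1 also had ratios of 0.26 each. Atg14, which directs the complex to sites where autophagosomes form, was at 0.17, and the lipid kinase itself, Pik3c3, was at 0.05, within the spot-level SD of 0.10 for genes of its signal. Its regulatory subunit Pik3r4 was measured by 10 spots on each array, with 0.787 in cast and 0.874 in control muscle. These gave a ratio of -0.15, with an SD between spots of 0.05 log2 units on each array, and its sign turned without scaling and with spike-in scaling.

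Genes that supply membrane and lipid were at or above equality, with a median of 0.22 and 5 of 6 above 0. The lipid transfer proteins Atg2b and Atg2a, which carry lipids from the endoplasmic reticulum to the growing membrane, had ratios of 0.39 and 0.35. For Atg2b the scaled signal was 0.896 in cast and 0.682 in control muscle, and for Atg2a it was 1.30 in cast and 1.02 in control muscle. Wipi2, which reads the lipid mark and brings in the conjugation machinery, was at 0.29, and its other probe gave 0.30. Atg9a, a lipid scramblase of the vesicles that seed the membrane, was at 0.15. Vmp1, a scramblase of the endoplasmic reticulum, had 9.78 in cast and 8.93 in control muscle, a ratio of 0.13. Wipi1, a relative of Wipi2, had 3.88 in cast and 3.90 in control muscle, a ratio of -0.0096 that turned in sign under 6 of the other settings, median and quantile scaling among them.

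**Figure D2:**
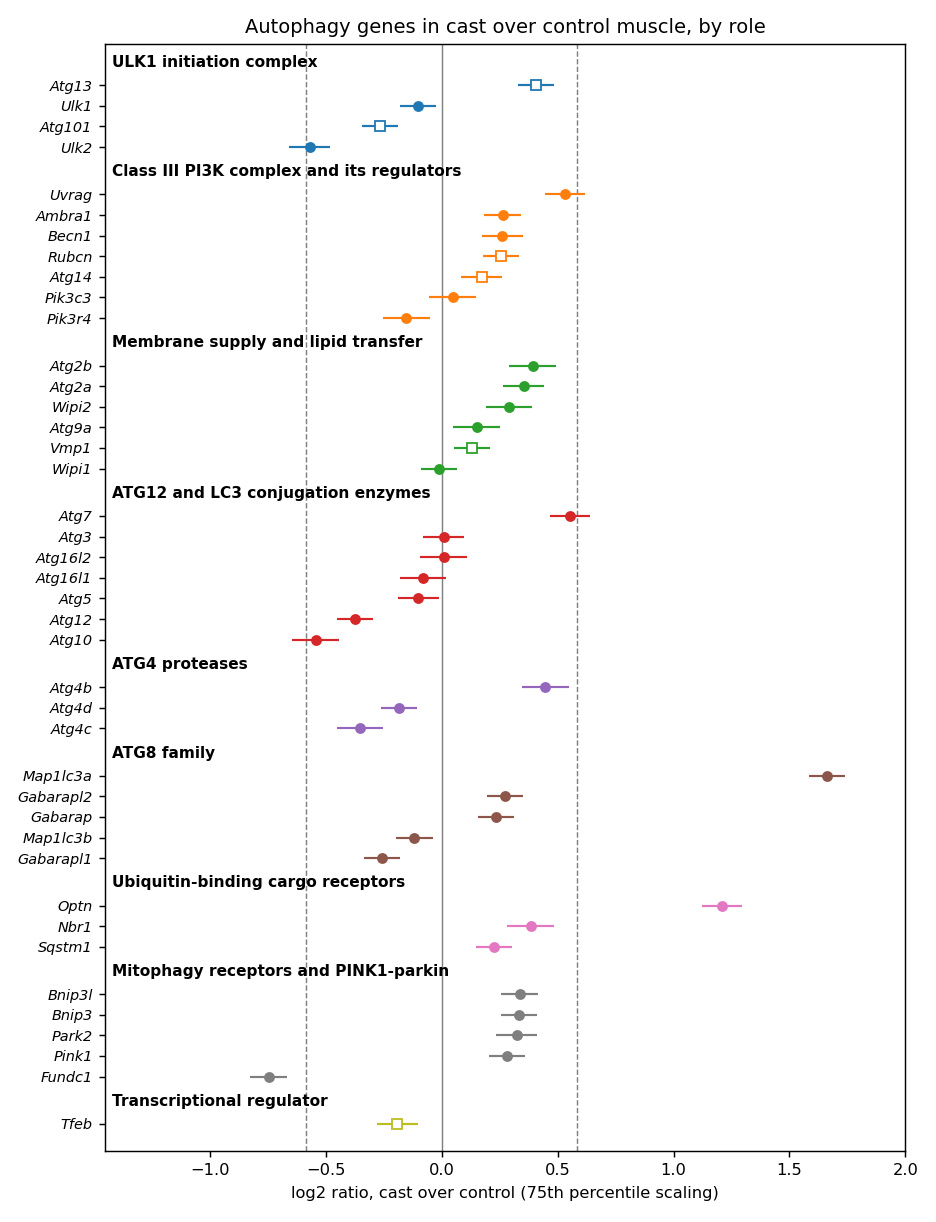
Log2 ratio of cast over control (horizontal axis, 75th percentile scaling) for the 41 measured autophagy genes, grouped by role and sorted within each group. Points are 1 array per group, filled circles are genes found by symbol and open squares those found by accession, bars are the typical spot-level SD of probes of that signal, and vertical lines mark equality and 1.5-fold. Map1lc3a at 1.66 and Optn at 1.21 stand beyond the right dashed line and Fundc1 at -0.75 beyond the left one.

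The enzymes of the ubiquitin-like conjugation system, which attach ATG12 to ATG5 and lipid to the ATG8 proteins, lay on both sides of equality, with 3 of 7 above 0 and a median of -0.08. Atg7, the activating enzyme of both reactions, had 1.44 in cast and 0.979 in control muscle, a ratio of 0.55 or 1.47-fold higher. Its dimmer probe gave 0.82, past 1.5-fold, with 0.239 in cast and 0.135 in control muscle. Atg10, the conjugating enzyme for ATG12, lay on the opposite side, with 0.720 in cast and 1.05 in control muscle, a ratio of -0.54 and -0.31 by its other probe. Atg12, the ubiquitin-like protein of that branch, had 3.41 in cast and 4.42 in control muscle, a ratio of -0.37 and -0.43 by its other probe. The enzyme that starts both reactions was thus higher in cast muscle while ATG12 and the enzyme that hands it on were lower, by every measured probe of the 3 genes. The main probes kept these signs under all settings, but not these sizes. Without scaling and with spike-in scaling, Atg12 was at -0.04 and -0.02, within its spot-level SD of 0.08. Atg10 was then at -0.20 and -0.19, and Atg7 at 0.89 and 0.90.

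Atg3, which hands ATG8 proteins to their lipid, had a ratio of 0.0091. Atg16l2, a relative of Atg16l1, was at 0.0090, and its other probe gave -0.03, on the other side of 0. Atg5, which carries ATG12, was at -0.10, and Atg16l1, which places the finished complex on the membrane, was at -0.08, and both turned in sign without scaling and with spike-in scaling.

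ATG4 proteases trim new ATG8 proteins for lipid attachment and cut them off the membrane again. Atg4b, known as the most active of them on LC3 proteins, had 0.525 in cast and 0.386 in control muscle, a ratio of 0.45. Atg4c had 0.583 in cast and 0.743 in control muscle, a ratio of -0.35, with -0.36 by its other probe. For Atg4d, 17.2 in cast and 19.5 in control muscle gave a ratio of -0.18, which turned in sign without scaling and with spike-in scaling. These 3 proteases thus did not share a direction.

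In the ATG8 family, 1 gene stood far from its relatives. Map1lc3a, which encodes LC3A, an ATG8 protein attached to the autophagosome membrane, had a scaled signal of 46.5 in cast muscle, against 14.7 in control muscle. That is a log2 ratio of 1.66 or 3.17-fold higher, at percentile 99.4 of all measured genes, and it was the highest ratio among the members. It rests on 1 probe with a single spot on each array. Gabarap, an ATG8 protein first known for binding a neurotransmitter receptor, had 36.7 in cast and 31.2 in control muscle, a ratio of 0.24, with 0.34 by its other probe. Gabarapl2, also known as GATE-16, had 22.7 in cast and 18.8 in control muscle, a ratio of 0.27.

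Map1lc3b, whose LC3B protein is the usual marker of autophagosomes, was measured by 10 spots on each array, with 17.1 in cast and 18.5 in control muscle. Its ratio was -0.12, with an SD between spots of 0.05 log2 units on each array. Gabarapl1 had 21.9 in cast and 26.1 in control muscle, a ratio of -0.26, and both genes turned in sign without scaling and with spike-in scaling. Under 12 settings, the main one and 11 alternatives, Map1lc3a stayed between 1.58 and 2.01, while Map1lc3b stayed between -0.18 and 0.23 and Gabarapl1 between -0.33 and 0.09.

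The probes of the 5 genes are shown because close relatives could share signal on an array. Capitals mark the longest stretch that a probe shares with the Map1lc3a probe, which was 5 bases for 3 of them and 6 for Gabarapl2. Probes were compared with each other and not with the relatives' transcripts, so shared signal was not tested. Each is 60 bases long, is printed 5′ to 3′, and lies in mm9 at the position given in the file headers' build. Map1lc3a lies at chr2:155103435-155103494 on the plus strand, Map1lc3b at chr8:124121771-124121830 (plus), Gabarap at chr11:69806585-69806644 (plus), Gabarapl1 at chr6:129492254-129492313 (plus) and Gabarapl2 at chr8:114476386-114476445 (plus).
Map1lc3a: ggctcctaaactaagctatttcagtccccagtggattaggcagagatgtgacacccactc
Map1lc3b: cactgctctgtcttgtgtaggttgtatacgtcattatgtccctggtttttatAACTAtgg
Gabarap: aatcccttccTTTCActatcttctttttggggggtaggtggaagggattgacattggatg
Gabarapl1: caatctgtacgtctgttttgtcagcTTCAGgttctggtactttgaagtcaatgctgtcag
Gabarapl2: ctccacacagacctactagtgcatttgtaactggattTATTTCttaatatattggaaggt

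**Figure D3:**
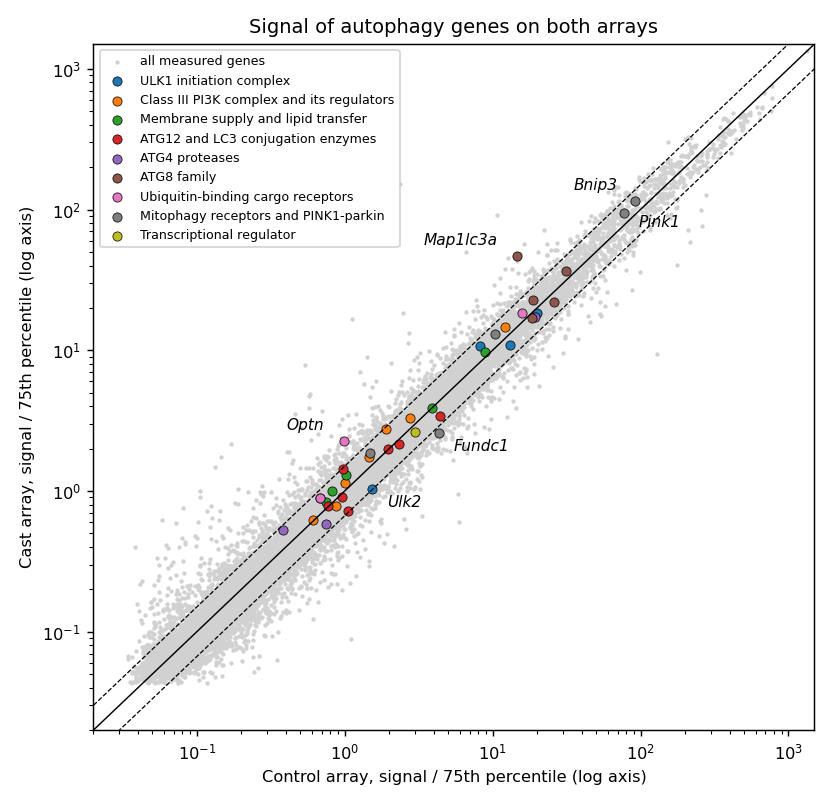
Scaled signal on the cast array (vertical, log axis) against the control array (horizontal, log axis) for all 15708 measured genes in grey and the 41 autophagy genes in colour by role. The solid line marks equality and the dashed lines 1.5-fold. Map1lc3a, at 46.5 on cast and 14.7 on control, and Optn, at 2.28 on cast and 0.987 on control, lie above the upper dashed line, and Fundc1, at 2.58 on cast and 4.32 on control, lies below the lower one.

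All 3 ubiquitin-binding cargo receptors had ratios above 0. Optn, which encodes optineurin, a receptor for ubiquitin-tagged mitochondria and bacteria, had a scaled signal of 2.28 in cast muscle, against 0.987 in control muscle. That is a log2 ratio of 1.21 or 2.31-fold higher, at percentile 98.7 of all measured genes, and it stayed between 1.08 and 1.56 under the 12 settings. Nbr1, a receptor related to p62, had 0.893 in cast and 0.684 in control muscle, a ratio of 0.38. Sqstm1, which encodes p62 itself and is both a receptor and a substrate of autophagy, had 18.5 in cast and 15.8 in control muscle, a ratio of 0.23.

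Mitophagy genes, which direct mitochondria to autophagosomes, lay above 0 with 1 exception, the receptor Fundc1. Fundc1, a protein of the outer mitochondrial membrane known for mitophagy under low oxygen, had 2.58 in cast muscle, against 4.32 in control muscle. Its log2 ratio was -0.75 or 1.68-fold lower, at percentile 4.70 of all measured genes. The ratio kept its sign in all settings, between -0.76 and -0.40, but came within 1.5-fold without scaling and with spike-in scaling. The probes of Optn and Fundc1, 1 for each gene, are shown here since both results rest on a single spot per array. Optn is at chr2:4954187-4954246 and Fundc1 at chrX:17133867-17133926, both in mm9 on the minus strand.
Optn: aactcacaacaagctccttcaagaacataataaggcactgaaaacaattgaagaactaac
Fundc1: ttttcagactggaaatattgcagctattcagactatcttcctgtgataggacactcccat

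The other mitophagy genes had ratios between 0.28 and 0.34. Bnip3l, a mitochondrial receptor also called NIX, had 13.0 in cast and 10.3 in control muscle, a ratio of 0.34, and its 4 probes ranged from 0.09 to 0.34. Pink1, the kinase that accumulates on damaged mitochondria, had 94.4 in cast and 77.6 in control muscle, a ratio of 0.28. Park2, the ubiquitin ligase parkin that Pink1 activates, had 1.85 in cast and 1.48 in control muscle, a ratio of 0.32, while its dim probe gave 0.05.

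Bnip3, a receptor induced by low oxygen and by FoxO3, had 115.03 in cast and 91.3 in control muscle by its main probe, a ratio of 0.33. Its other probes gave 0.61, past 1.5-fold, with 73.7 in cast and 48.4 in control muscle, and -0.28, with 0.750 in cast and 0.913 in control muscle. The 3 probes therefore spanned both sides of equality, and the reading of the gene depends on the probe. All 3 lie within 1 short stretch of mm9 on the minus strand. They are shown from the first along the transcript to the last, with the main probe at chr7:146082760-146082819, the probe at 0.61 at chr7:146082640-146082699 and the probe at -0.28 at chr7:146082536-146082595.
Bnip3 main probe: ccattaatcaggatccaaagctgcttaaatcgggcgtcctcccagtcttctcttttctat
Bnip3 second probe: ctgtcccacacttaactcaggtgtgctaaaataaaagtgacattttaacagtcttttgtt
Bnip3 last probe: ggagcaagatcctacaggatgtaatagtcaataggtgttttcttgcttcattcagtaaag

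Besides replicate spots, further probes of a gene were the only second reading that the arrays held. Of the members found by symbol, 13 had several probes well above background on both arrays, and in 11 of them all probes lay on the same side of 0. Atg16l2 and Bnip3 were the exceptions. Map1lc3a, Optn and Fundc1 had a single probe each, with a single spot per array, so no second probe or spot bears on the genes that stood farthest from equality.

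**Figure D4:**
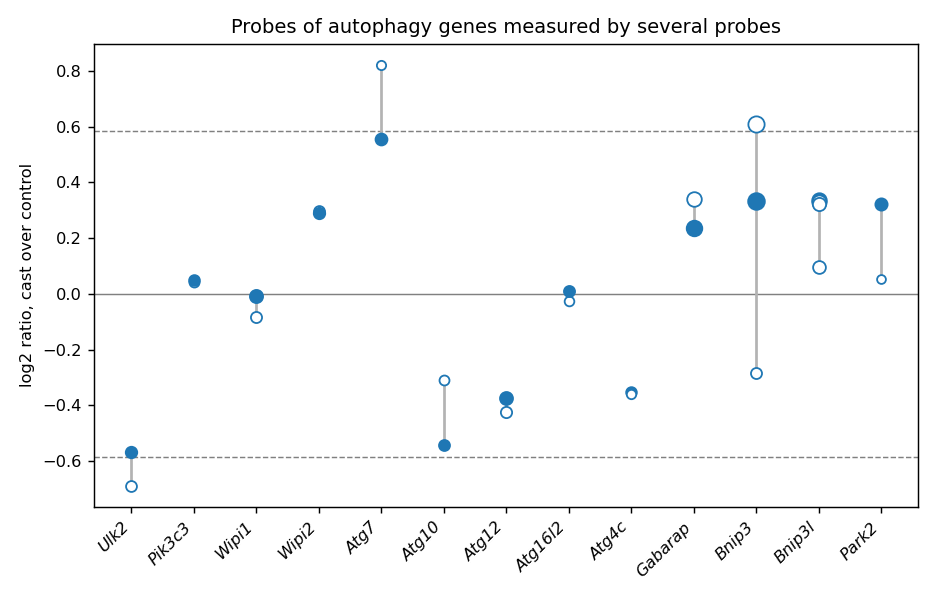
Log2 ratio of cast over control (vertical axis) for each measured probe of the 13 autophagy genes with several. Filled points are the probe used for the gene, open points the others, point size follows the scaled signal on the cast array, grey lines join the probes of a gene, and horizontal lines mark equality and 1.5-fold. Bnip3 spans from -0.28 to 0.61, and Atg7, at 0.55 and 0.82, and Ulk2, at -0.57 and -0.69, keep to one side.

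Tfeb, the transcription factor that drives lysosomal and autophagy genes, had 2.62 in cast and 2.99 in control muscle, a ratio of -0.19 that turned in sign without scaling and with spike-in scaling. The promoters of the members were searched for the letters that such factors are known to bind. The windows, from RefSeq on GRCm38.p6, run from 250 bases before to 50 after a gene's start, and they were at hand for 35 of the 42 members, in 43 windows. CACGTG, the core of the sites of TFEB, which reads the same on both strands, was present in 6 of these windows (14.0%), 1 each for Atg3, Atg5, Atg7, Atg14, Bnip3 and Rubcn, and in 2349 of all 32851 windows (7.15%). The ratios of these 6 genes ran from -0.10 to 0.55. GTAAACA, a core of FoxO sites, was found on neither strand in any of the 43 windows and in 1199 of all windows (3.65%). A match here is a description of letters in a window and not a site. Map1lc3a was not among the members with a window. The windows of Atg7, at chr6:114670846-114671145 (plus), and Bnip3, at chr7:138909457-138909756 (minus), are shown as the pair with the highest ratios among the 6, with CACGTG in capitals.
Atg7 promoter: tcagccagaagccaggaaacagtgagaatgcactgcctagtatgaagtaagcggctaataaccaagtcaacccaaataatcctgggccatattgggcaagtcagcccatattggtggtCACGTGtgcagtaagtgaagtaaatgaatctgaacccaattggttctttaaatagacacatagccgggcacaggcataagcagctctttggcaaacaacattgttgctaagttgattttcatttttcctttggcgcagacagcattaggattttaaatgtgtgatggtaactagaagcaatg
Bnip3 promoter: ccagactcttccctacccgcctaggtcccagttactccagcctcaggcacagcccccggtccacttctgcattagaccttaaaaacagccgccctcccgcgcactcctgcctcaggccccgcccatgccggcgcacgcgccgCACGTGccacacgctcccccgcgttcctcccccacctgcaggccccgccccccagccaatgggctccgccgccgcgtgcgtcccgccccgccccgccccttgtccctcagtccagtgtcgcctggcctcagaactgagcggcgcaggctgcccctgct

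Genes around the core machinery were read from 4 further lists, with the 75th percentile scaling alone. Among other autophagy factors, 21 of 23 were measured. By their main probes 2 were at least 1.5-fold higher, 1 at least 1.5-fold lower, and the median was 0.04. Tmem41b was within 1.5-fold by its main probe, at -0.35, but its other probe gave -1.12, past 2-fold. Trp53inp1, a p53-induced protein that binds ATG8 proteins, had 2.27 in cast and 1.13 in control muscle, a ratio of 1.01. Bcl2l13, a further mitophagy receptor of the outer mitochondrial membrane, had 4.41 in cast and 7.38 in control muscle, a ratio of -0.74, next to the -0.75 of Fundc1. Sh3glb1, which binds the Becn1 complex through Uvrag, had 20.5 in cast and 12.5 in control muscle, a ratio of 0.71, but its other probe gave -0.29. Atg9b was too dim on both arrays to count as measured, and Epg5 was not found under its symbol.

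No gene of the list for fusion of autophagosomes with lysosomes reached 1.5-fold in either direction among 16 measured, and their median was 0.05. Its members farthest from equality were the lysosomal membrane protein Lamp2, at 9.48 in cast and 6.62 in control muscle with a ratio of 0.52, and the tethering subunits Vps11 at 0.41 and Vps33a at 0.39. By its main probe Lamp2 thus lay near Uvrag and Atg7 in size, while its other probe gave 0.34.

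Inputs to autophagy from mTORC1, AMPK and FoxO factors had a median of -0.04 over 29 of 30 genes, with 1 at least 1.5-fold higher and 2 at least 1.5-fold lower. Foxo1, a transcription factor of atrophy genes, had 4.69 in cast and 3.09 in control muscle, a ratio of 0.60, while its other probe gave 0.50, within 1.5-fold. Prkab2, a regulatory subunit of AMPK in muscle, had 18.04 in cast and 32.2 in control muscle, a ratio of -0.84, and Fnip1, a partner of folliculin, had 3.90 in cast and 6.17 in control muscle, a ratio of -0.66. Foxo3 was too dim on both arrays to count as measured.

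Lysosomal hydrolases and proton pump subunits, 31 genes, had a median of 0.07, with 3 at least 1.5-fold higher and 1 at least 1.5-fold lower. Cathepsin S (Ctss) had 1.74 in cast and 0.772 in control muscle, a ratio of 1.18, cathepsin L (Ctsl) was at 0.72, and prosaposin (Psap) was at -0.61. The remaining gene at least 1.5-fold higher was the pump subunit Atp6v1a at 0.59, named after its value was seen. The medians of these 4 lists ran from -0.04 to 0.07, where that of the autophagy genes was 0.23, and a difference between them could not be tested with 1 array per group.

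**Figure D5:**
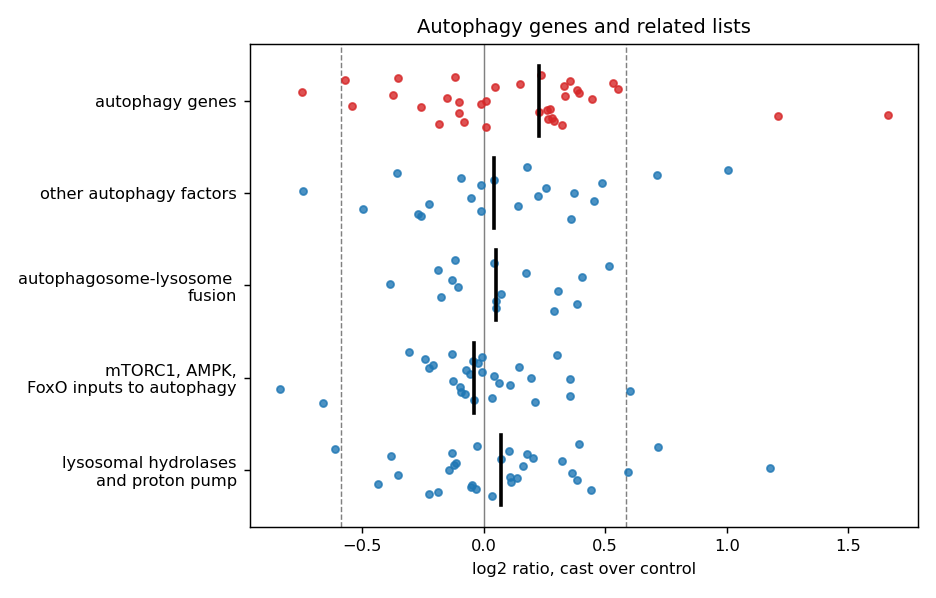
Log2 ratio of cast over control (horizontal axis) for each measured gene of the autophagy machinery (red, 35 genes found by symbol) and of 4 related lists (blue), 1 point per gene, with vertical spread within a row for display only. Black bars are medians, at 0.23 for the autophagy genes and between -0.04 and 0.07 for the other lists, and vertical lines mark equality and 1.5-fold.

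Marker genes of the tissue and of other cell types were read on the same arrays, each from its main probe and with the 75th percentile scaling alone. Another probe passed 1.5-fold for Tnnt3 (fibre, -0.94), Kdr (endothelium, -0.89) and Itgam (macrophage, -0.59), whose main probes did not. All 10 muscle fibre markers were measured, among them fast myosin and parvalbumin, none was 1.5-fold apart, and their summed scaled signal was 3416 in cast and 3950 in control muscle, with a median ratio of -0.16. Macrophage markers, 9 of 11 measured and with Cd68 and Cd163 too dim on both arrays, summed to 18.4 in cast and 21.7 in control muscle. Their median ratio was 0.29, opposite in sign to the change in the sum, with 7 above 0, 2 below and none past 1.5-fold. Itgam alone held 9.53 of the cast sum and 13.8 of the control sum. Of 7 fibroblast markers, 5 were at least 1.5-fold lower, with a sum of 111.8 in cast and 159.7 in control muscle and a median of -0.80. Endothelial markers, all 7 measured, summed to 39.6 in cast and 46.6 in control muscle, with 1 past 1.5-fold on either side. Fat cell markers, 5 of 6 measured, summed to 38.8 in cast and 42.4 in control muscle, with 1 at least 1.5-fold higher. Blood cell markers, 5 of 7 measured, summed to 195.0 in cast and 167.2 in control muscle, of which Hba-a1 alone held 188.7 and 163.2. Among them S100a8 and S100a9 were at least 2-fold higher, at ratios of 2.21 and 2.23. The part of these cells in the ratios of Map1lc3a, Optn and Fundc1 was not tested.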

How the data were processed

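Per the labels' protocols, total RNA was column-purified and labelled with Cy3. The submitters' processing notes name Agilent Feature Extraction 9.5 as the source of the authors' deposited spot intensity. It was background-subtracted and detrended within each array but not scaled between arrays, and probe coordinates are on mm9, per the file headers. The deposited series table of intensity was the same signal over each array's 75th percentile, times 100, with 55.4% of values whole numbers. It had medians of 8.70 for cast and 9.00 for control, and served as an alternative.

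Processed signals were log2-transformed, averaged over spots of a probe without control and non-uniform spots (9 flagged on cast, 2 on control), and scaled to each array's 75th percentile over gene probes. A probe counted as measured when more than 0.5 of its spots were well above background on both arrays, and a gene took its probe of highest mean signal. Older names were resolved by accession in a RefSeq table (GRCm38.p6, names and promoters only). Gene models of mm9 were not used here, so exon positions of probes are not given. With 1 array per group, sizes and counts past 1.5-fold and 2-fold replace tests, and precision is limited by having 1 array each. The members and lists were chosen with earlier results of these data known.

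By rule, all measured members are accounted for by role, with both arrays' values for those past 1.5-fold and for the brightest and most distant of each role, and up to 3 genes of largest absolute ratio from each related list. Of the marker lists, summed values and counts are given. Alternatives were median, quantile, cyclic loess, spike-in and no scaling, normexp background (offset 50), the deposited table, the mean of probes and 3 filters on dim probes, run with Python 3.11.15, R 4.3.3 and limma 3.58.1, and the code for ratios and counts was checked on simulated signals, which tests no gene's own ratio.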

Additional observations from a re-analysis of the deposited data

How the results depend on the processing

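The members' median, their counts past 1.5-fold and the ratio of each member were recomputed under 11 alternatives, and the median and counts also with the 6 members under older names, which was added after seeing the data. The related lists, markers and motifs were not recomputed, and the dimmest members have no ratio under the filter that kept brighter genes. The members' median log2 ratio was above 0 under every alternative. It was 0.56 without scaling and 0.58 with spike-in scaling, where the median of all genes was 0.31 and 0.32, and between 0.17 and 0.31 under the others. The count of members at least 1.5-fold higher was 16 without scaling and 17 with spike-in scaling, where 23.7% and 24.4% of all genes were. Under both, 30 of 35 members lay above 0, where 79.7% and 80.5% of all genes did. The count at least 1.5-fold higher was 4 with median scaling, which added Atg7 and Uvrag, where 9.42% of all genes were. The count at least 1.5-fold lower was 0 without scaling and 0 with spike-in scaling, where 2.67% and 2.57% of all genes were. Fundc1 came within 1.5-fold under both. The count lower was 2 with the mean of probes, which added Ulk2, where 8.09% of all genes were. With the same setting the count higher was 3, which added Atg7, where 6.83% of all genes were. The 7 spike-in probes had a mean log2 ratio of -0.35 after the main scaling, and the cause was not tested. Map1lc3a and Optn stayed past 1.5-fold under every setting. For Map1lc3a, Optn and Fundc1, each with 1 probe, the mean of probes and the 3 filters on dim probes returned the main ratio and could not move it. No called ratio changed sign, and 11 members within 1.5-fold did under at least 1 setting. No paired analysis was possible because each group is 1 pooled array, and no replicate could be left out. Scaled signals down to 0.0423 on the cast array and 0.0340 on the control array could pass as well above background, and Atg4a, the one member under this limit, has no ratio.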
